A study of Mus musculus with 4 samples.

Results

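The mouse array carried 13 probes for 10 genes of the signalling chain that taste cells use and of its output channel, the cation channel Trpm5, out of 26263 genes named on the array. These probes were chosen by gene name, for the channels Trpm5, Trpm4, Trpm2 and Trpm3, the G protein subunits Gng13 and Gnat3, the phospholipase Plcb2, the inositol trisphosphate (IP3) receptor Itpr3 and the sweet receptor subunits Tas1r2 and Tas1r3. Expression was measured on 1-colour Agilent arrays in pancreatic islets, which secrete insulin and other hormones, from C57BL/6 mice aged 8 weeks. The islets were kept for 24 h in medium with 5.6 mM glucose and either 30 µM GKA, a glucokinase activator, dissolved in DMSO (2 arrays), or the DMSO vehicle without it (2 arrays). Glucokinase is the enzyme that phosphorylates glucose in beta cells, and the comparison asks what its activation changes in islet RNA. Nothing in the labels states that replicates are different mice or cultures, so all SEs and p-values cover only the spread between these arrays, which may be technical. Trpm5 was chosen because its signal differed between these groups, and the other genes because they belong to its family or pathway, with results of these arrays known. Differences of these 10 genes between the groups are therefore given as descriptions. Where those with a low adjusted p in limma are counted, nothing is read from the counts.

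In taste cells, sweet compounds bind a receptor made of Tas1r2 and Tas1r3, which activates a G protein containing Gnat3 (alpha-gustducin) and Gng13. Its beta-gamma part activates Plcb2, the IP3 that forms opens the calcium store through Itpr3, and the released calcium opens Trpm5, through which sodium ions enter and depolarise the cell. Mouse beta cells express Trpm5 as well, where its current adds to the depolarisation that drives insulin release. Trpm4 is its closest relative, also opened by calcium, Trpm2 is a calcium-permeable channel opened by ADP-ribose, and Trpm3 is a calcium-permeable channel opened by the steroid pregnenolone sulfate.

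All 11 beta-cell markers on the list, among them Ins1, Ins2, Iapp, Mafa and Pdx1, were well above background on all 4 arrays. The share of the 39429 non-control probes that exceeded background by the scanner software's criterion was 59.7% to 63.5% per array. Each array was scaled to its 75th percentile, which was 557 and 598 on the GKA arrays and 751 and 755 on the vehicle arrays. All arrays came from 1 slide, with the GKA samples at positions 3 and 4 and the vehicle samples at positions 1 and 2, so position and treatment cannot be told apart. With 2 arrays a group the precision is limited, and the smallest two-sided p of an exact permutation test would be 0.333.

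Trpm5 was far lower with GKA. Its processed intensity was 1032 and 812 on the GKA arrays, against 6489 and 5433 on the vehicle arrays. On the log2 scale relative to the 75th percentile of each array, the signal was 0.89 and 0.44 with GKA and 3.11 and 2.85 with vehicle. Both GKA arrays lay below both vehicle arrays, with a gap of 1.96 between the groups, while the replicates differed by 0.45 within GKA and by 0.27 within vehicle. The log2 fold change was -2.31 ± 0.19 (SE from limma), so that the GKA signal was 20.1% of the vehicle signal. Without either GKA or either vehicle array in turn, it ran from -2.54 to -2.09. Of 17178 genes measured, 25, Trpm5 included (0.146%), had a change at least as low. In bulk islet RNA, fewer cells of a type and less RNA per cell cannot be told apart. The intensity on the lower GKA array was still 59.8 times the lowest signal that the scanner software called well above background there, so the size of the fold does not rest on a signal near background. The authors' deposited table places the probe on mm9 chromosome 7 (150257434 to 150257456) and gives a ratio of GKA over control of 0.155.

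Gng13, the G protein gamma subunit that taste cells pair with gustducin, was the other strongly lower gene. Its intensity was 168 and 153 on the GKA arrays, against 662 and 400 on the vehicle arrays. The scaled log2 signal was -1.73 and -1.97 with GKA and -0.18 and -0.92 with vehicle. The groups did not overlap, with a gap of 0.81, but the vehicle arrays lay 0.74 apart. The log2 fold change was -1.30 ± 0.26 (SE), or 40.6% of the vehicle signal, with 195 genes (1.14%) at least as low, and it was -0.93 without vehicle replicate 1 and -1.67 without vehicle replicate 2. The probe lies on mm9 chromosome 17 (25855911 to 25855970), and the authors' deposited table gives a ratio of 0.302.

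The bases upstream of the transcript start are shown for the 2 genes with the lowest fold change and for Itpr3, whose window held the most kinds of the motifs searched. RefSeq promoters of build GRCm38.p6 matched 9 of the 10 genes, with 11 start sites, and Trpm4 was not among them. Each sequence is the 250 bases before the start, 5′ to 3′ in the direction of the gene, with motif matches in capitals. Trpm5 is at chr7:143094643-143094892 on the minus strand, Gng13 (the upstream of its 2 listed starts) at chr17:25716922-25717171 on the plus strand and Itpr3 at chr17:27057054-27057303 on the plus strand.
Trpm5: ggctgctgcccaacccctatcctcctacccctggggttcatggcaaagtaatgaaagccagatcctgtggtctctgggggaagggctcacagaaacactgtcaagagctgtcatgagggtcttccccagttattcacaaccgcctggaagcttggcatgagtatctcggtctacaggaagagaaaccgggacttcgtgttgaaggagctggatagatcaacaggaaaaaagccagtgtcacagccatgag
Gng13: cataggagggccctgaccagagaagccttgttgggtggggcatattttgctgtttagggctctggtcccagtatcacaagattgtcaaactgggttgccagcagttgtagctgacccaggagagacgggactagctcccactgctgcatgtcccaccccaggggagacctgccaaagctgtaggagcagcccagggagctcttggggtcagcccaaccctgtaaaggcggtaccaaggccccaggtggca
Itpr3: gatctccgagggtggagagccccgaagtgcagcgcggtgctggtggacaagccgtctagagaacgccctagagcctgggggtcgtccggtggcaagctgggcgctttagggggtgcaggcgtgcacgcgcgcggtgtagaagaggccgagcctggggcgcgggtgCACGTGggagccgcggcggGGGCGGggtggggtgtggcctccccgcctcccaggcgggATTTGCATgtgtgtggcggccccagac

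A set of 7 motifs was searched on both strands in these windows and in the same windows of all 32851 promoters of the table: TATAAA (a core promoter box), CCAAT (bound by the factor NF-Y), GGGCGG (GC box), CACGTG (E-box), TGACGTCA (cAMP response element), CTTTGAT (TCF/LEF site) and ATGCAAAT (octamer). The Trpm5 window and the upstream Gng13 window held no match, like 5 of the 11 windows in all. Itpr3 had an E-box 85 bases before the start, a motif in 6.02% of all promoters, a GC box 66 bases before it (32.7% of all) and an octamer 27 bases before it (1.60% of all). The downstream start of Gng13 had 3 GC boxes, 123, 118 and 39 bases before it, of which the first 2 overlap. No window had a cAMP response element or a TCF/LEF site, which 1.55% and 3.21% of all promoters held. The share of G and C was 52.8% for Trpm5, 58.8% for the upstream Gng13 start and 72.0% for Itpr3, against a median of 52.4% over all promoters. A match describes letters in a window and is not evidence of binding, and no match says only that these letters are not in this window.

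**Figure D1:**
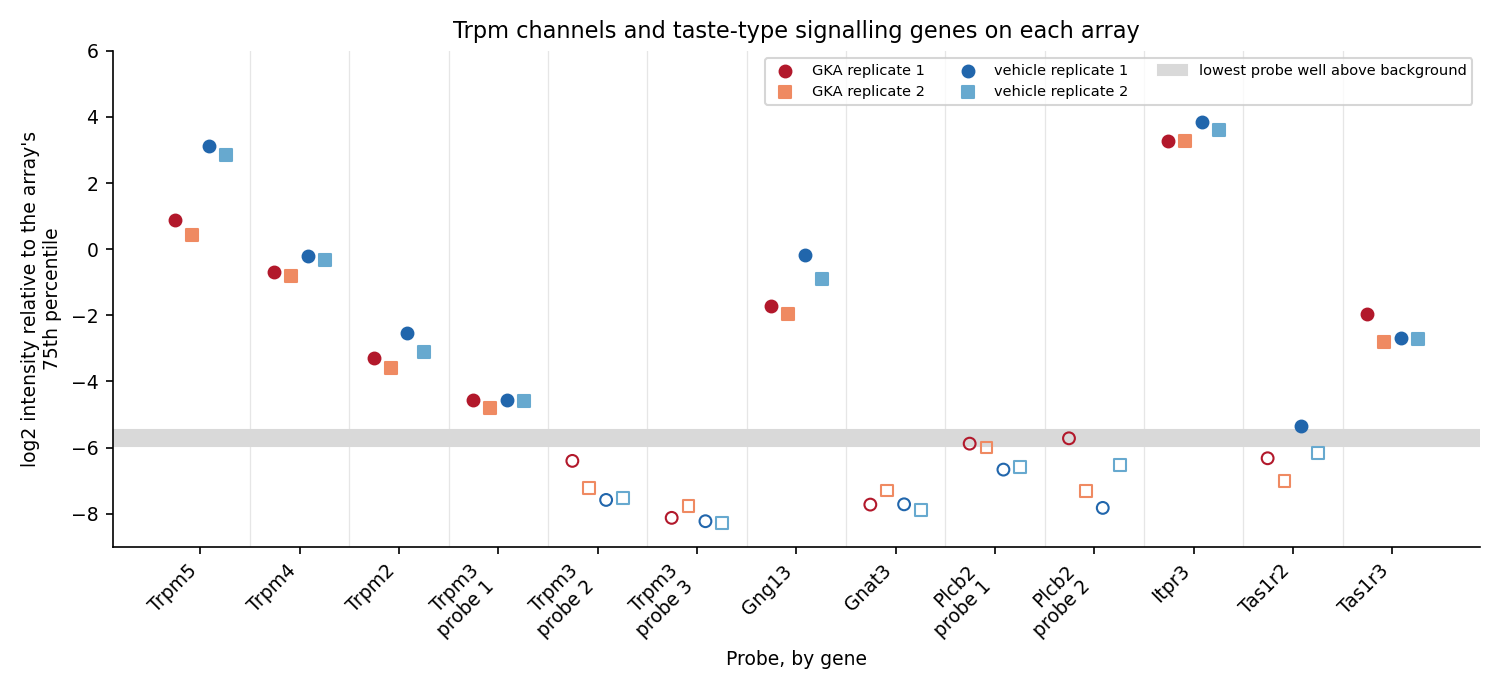
Scaled log2 intensity of all 13 probes (vertical axis, relative to the 75th percentile of each array) on the 2 GKA and the 2 vehicle arrays. Filled symbols were well above background and open ones were not, the grey band spans the lowest signals well above background on the 4 arrays, and levels of different probes cannot be set against each other. Trpm5 stood at 0.89 and 0.44 with GKA and at 3.11 and 2.85 with vehicle, the widest separation of the 13 probes, while all values of Gnat3 and Plcb2 are open.

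The other Trpm channels differed less. Trpm4 had intensities of 347 and 343 with GKA and of 645 and 608 with vehicle. Its scaled signal was -0.68 and -0.80 with GKA and -0.22 and -0.31 with vehicle, without overlap, and its log2 fold change was -0.48 ± 0.12 (SE). This channel, opened by calcium like Trpm5, thus stood at 71.9% of its vehicle signal, against 20.1% for Trpm5. Within each array, and so free of the scaling between arrays, the log2 difference between the Trpm5 and Trpm4 signals was 1.57 and 1.24 with GKA and 3.33 and 3.16 with vehicle. The log2 change of Trpm5 minus that of Trpm4 was -1.84.

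Trpm2 had intensities of 56.4 and 49.1 with GKA and of 130 and 88.3 with vehicle. Its scaled signal was -3.30 and -3.61 with GKA and -2.53 and -3.10 with vehicle. The groups did not overlap, but the gap of 0.20 between them was smaller than the 0.56 between the vehicle arrays. The log2 fold change was -0.64 ± 0.22 (SE), and it was -0.36 without vehicle replicate 1 and -0.92 without vehicle replicate 2. With another background correction (normexp), it was -0.21 after 75th percentile scaling and -0.36 after quantile normalization. Trpm2 is also a channel of macrophages and other leukocytes. Of 18 measured leukocyte markers, 6 fell and 1 rose in limma, with a median of -0.48 and a summed scaled signal of 22.1 to 24.3 with GKA, against 27.9 to 29.0 with vehicle. Over all genes, 17.1% passed and 8.00% passed with a lower signal. Lyz2 (-2.14, above background on 1 of 2 GKA arrays), Lyz1 (-1.63) and Aif1 (-1.56) fell the most (adjusted p = 0.0143, 0.0118 and 0.0258 in limma), and Cd14 (1.32, adjusted p = 0.0321) rose. Among lymphocyte markers, Cd3e was measured on all arrays and did not pass (0.36 ± 0.15, adjusted p = 0.150 in limma), while Cd3g and Ms4a1 stayed below the background criterion on every array. The part of leukocytes in the Trpm2 signal was not tested.

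Trpm3 was represented by 3 probes, designed on different transcripts. The probe that was measured had intensities of 23.7 and 21.2 with GKA and of 31.5 and 31.0 with vehicle. Its scaled signal was -4.55 and -4.82 with GKA and -4.58 and -4.61 with vehicle, so the groups overlapped, and the log2 fold change was -0.09 ± 0.14 (SE). The overlap depends on the scaling: in the unscaled intensities, both GKA arrays lay below both vehicle arrays. Without scaling, however, most genes shifted down, with the median gene at -0.40 and Trpm3 at -0.48. These signals were 1.56 to 2.56 times the lowest signal well above background. The other 2 probes never exceeded background by that criterion, with intensities from 1.99 to 6.57 with GKA and from 2.42 to 4.10 with vehicle.

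Of the chain from receptor to calcium store, Itpr3 had the most reliable measurement. Its probe was spotted 10 times on each array, with 1 spot of GKA replicate 2 left out because the scanner software marked it as an outlier. The spots of an array, which are technical repeats, varied with a coefficient of variation of 2.78% to 4.01%. The mean over the spots was 5406 and 5743 on the GKA arrays and 10897 and 9135 on the vehicle arrays. The highest spot with GKA was 5964 and the lowest with vehicle was 8786, so the unscaled spots did not overlap. The scaled signal was 3.28 and 3.26 with GKA and 3.86 and 3.59 with vehicle, and the log2 fold change was -0.46 ± 0.14 (SE), or 72.9% of the vehicle signal. The vehicle arrays differed by 0.26 and the GKA arrays by 0.02.

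**Figure D2:**
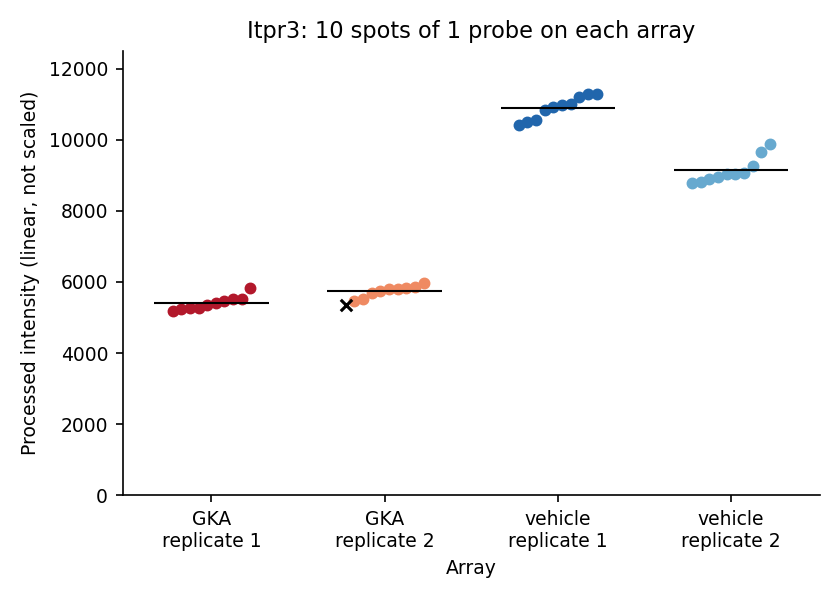
Processed intensity (linear scale, not scaled between arrays) of the 10 spots of the Itpr3 probe on each array, with the mean as a line and the spot marked as an outlier as a cross. All spots of the GKA arrays lie at or below 5964 and all of the vehicle arrays at or above 8786. Spots of an array are technical repeats and do not measure the spread between samples.

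Tas1r3, a subunit shared by the sweet and the umami receptor, was measured on all arrays and did not separate the groups. Its intensity was 144 and 86.0 with GKA and 118 and 116 with vehicle. The scaled signal was -1.95 and -2.80 with GKA and -2.67 and -2.71 with vehicle, and both vehicle arrays lay between the GKA arrays. The log2 fold change was 0.32 ± 0.28 (SE), but -0.07 without scaling, -0.28 with spike-in scaling and -0.11 without GKA replicate 1.

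Tas1r2, its partner in the sweet receptor, was well above background on vehicle replicate 1 alone, with intensities of 6.94 and 4.59 with GKA and of 18.3 and 10.6 with vehicle. No fold is given, because its mean scaled log2 signal with vehicle, -5.75, was below the mean of the lowest signals well above background on the GKA arrays, -5.63. Gnat3 had intensities of 2.63 and 3.79 with GKA and of 3.57 and 3.17 with vehicle. Plcb2 had 9.43 and 9.35 with GKA and 7.38 and 7.83 with vehicle on 1 probe, and 10.6 and 3.77 with GKA and 3.31 and 8.15 with vehicle on the other. The probes of Gnat3 and Plcb2 stayed below the background criterion on every array, so these data set no order between the groups for either. The error that the scanner software reports for these Gnat3 spots was 99.6% to 99.7% of the signal.

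Over the 7 genes measured, 6 had a negative log2 fold change, with a median of -0.48, against -0.01 over all 17178 genes. Both GKA arrays lay below both vehicle arrays in 5 of the 7, where 33.5% of all genes did so. In limma, 2 of the 7 (Trpm5 and Gng13) had an adjusted p under 0.05, both lower with GKA, where 17.1% of all genes did and 8.00% were lower. The genes were chosen with this contrast known, and nothing is read from these counts. The 3 genes not measured (Gnat3, Plcb2 and Tas1r2) enter none of them.

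Directions are relative to the 75th percentile of each array, and that percentile was lower on both GKA arrays. Without scaling, the median gene stood at -0.40 and Trpm5 at -2.70, Gng13 at -1.68, Trpm2 at -1.02, Trpm4 at -0.86, Itpr3 at -0.84 and Trpm3 at -0.48. With E1A spike-in scaling the median gene stood at -0.61 and Trpm5 at -2.91. Over all genes, 1567 were higher and 1375 lower with GKA in limma, against 1381 and 1848 with median scaling, 750 and 7654 without scaling and 342 and 6805 with spike-in scaling. With spike-in scaling, limma gave the measured genes the same SE, 0.31, so its counts do not rest on each gene's own spread. The mean log2 spike-in signal was 8.94 and 9.25 with GKA and 9.07 and 8.70 with vehicle, so it overlapped between the groups. The ratios in the authors' deposited table, whose median over all probes is 0.841, are of the unscaled kind. Its ratio was 0.551 for Trpm4, 0.484 for Trpm2, 0.557 for Itpr3, 0.719 for the measured Trpm3 probe and 0.987 for Tas1r3. The order of the changes does not depend on the choice among these scalings, because each shifts all genes of an array alike. Taken within the arrays, the log2 change of Trpm5 minus that of the other gene was -1.01 for Gng13, -1.67 for Trpm2, -1.86 for Itpr3, -2.22 for Trpm3 and -2.63 for Tas1r3.

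**Figure D3:**
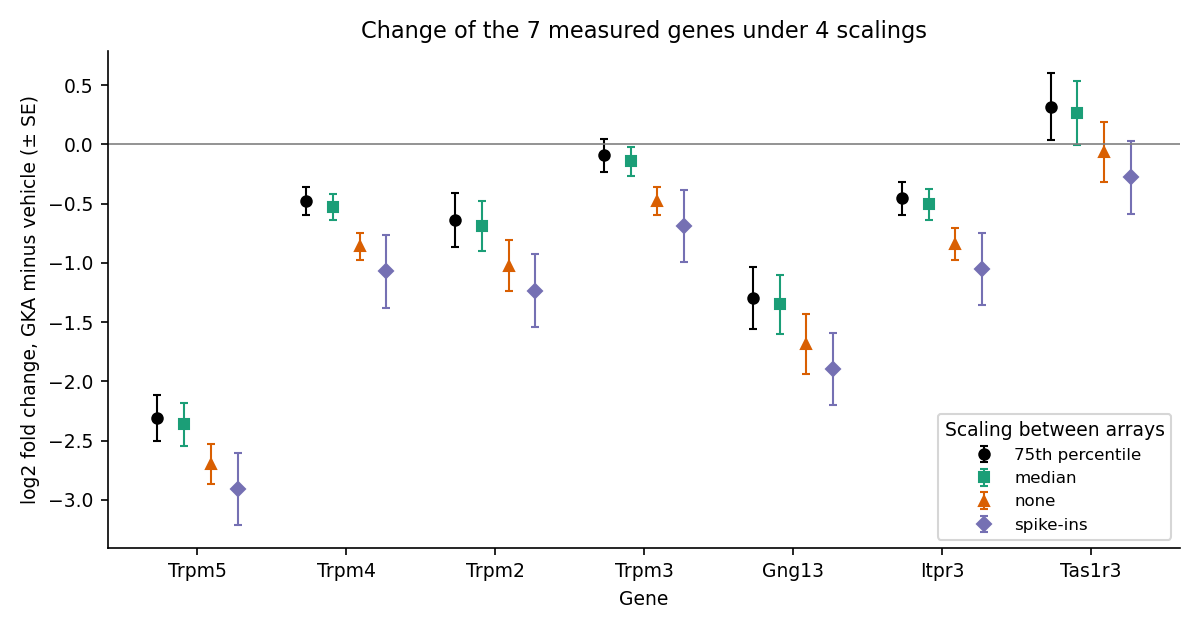
Log2 fold change (GKA minus vehicle, points, with SE as bars) of the 7 genes measured, after scaling each array to its 75th percentile, to its median, not at all or to the E1A spike-ins. Trpm5 runs from -2.31 to -2.91 and Gng13 from -1.30 to -1.90, and Tas1r3 changes sign, from 0.32 to -0.28. The spike-in bars have the same SE, 0.31, for all 7 genes and do not show each gene's own spread.

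The other genes of the same families and steps were taken from lists, also chosen with earlier results of these arrays known. They do not include the 10 genes above, and each list is set against the median of all genes, -0.01. Among 31 other taste receptors and taste-cell genes on the array, 14 were measured, 1 fell and 0 rose in limma, with a median of 0.37. The one that fell was Entpd2, an ATP-degrading ectoenzyme of glia-like taste cells, at -1.01 ± 0.16 on the log2 scale (adjusted p = 0.0191). Its intensity was 1357 and 1179 with GKA and 3588 and 3078 with vehicle. Of the 17 not measured, 16 stayed below the background criterion on every array. They included 11 of the 14 bitter receptors (Tas2r genes) and the ATP-release channels Calhm1 and Calhm3.

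Among 14 other TRP channels measured, 2 rose and 2 fell, with a median of -0.01. Mcoln3 and Mcoln1, cation channels of endosomes and lysosomes, fell by 1.59 and 0.69 on the log2 scale (adjusted p = 0.00513 and 0.0277 in limma), and both probes of Mcoln3 were lower. Trpc1 (0.76, adjusted p = 0.0226) and Trpc4 (0.52, adjusted p = 0.0354, though -0.08 with spike-in scaling), channels of the calcium-permeable TRPC group, rose. The Trpm relatives Trpm7 (-0.18 ± 0.12), Trpm1 (-0.30 ± 0.37) and Trpm8 (0.36 ± 0.26) did not pass, and Trpm6 stayed below the background criterion on every array. The 2 probes of Trpm1 went in opposite directions, at -0.30 and 0.81.

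Among 28 other G protein subunits measured, 3 rose and 1 fell, with a median of -0.07. Gng12 (1.07 ± 0.12, adjusted p = 0.00879 in limma) and Gng3 (0.91 ± 0.17, adjusted p = 0.0259), gamma subunits like Gng13, were higher. Gnat2, the transducin of cones and a relative of gustducin, was higher as well (0.58 ± 0.12, adjusted p = 0.0318), though -0.01 with spike-in scaling. Gnai2, an inhibitory alpha subunit, fell by 1.19 ± 0.12 on the log2 scale (adjusted p = 0.00762). Gnb3, the beta subunit of taste cells, was not measured. The alpha subunits that couple receptors to phospholipase C outside taste cells, Gnaq (-0.09 ± 0.11) and Gna11 (-0.07 ± 0.12), did not pass.

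Downstream of the G proteins, 2 of 13 other phospholipase C genes rose and 2 fell, with a median of -0.03. Plcb1, of the same beta class as Plcb2, fell by 0.71 (adjusted p = 0.0269 in limma) and Plcg2 by 0.57 (adjusted p = 0.0483). Plch2 (1.00, adjusted p = 0.0113) and Plcd1 (0.59, adjusted p = 0.0273, though at -0.00 with spike-in scaling) rose. Of 20 genes of calcium release, uptake and entry, 3 fell and 0 rose, with a median of -0.13. Itpr2, another IP3 receptor, fell by 1.52 ± 0.23 on the log2 scale (adjusted p = 0.0177). The scaled signal of Itpr2 was -0.19 and -0.35 with GKA and 1.58 and 0.93 with vehicle. Itpka, a kinase that converts IP3 to IP4, fell by 1.83 ± 0.18 (adjusted p = 0.00718), and Atp2a2, a calcium pump that refills the store, by 0.71 ± 0.11 (adjusted p = 0.0198). Their relatives Itpkb (-0.09), Itpkc (-0.17), Atp2a1 (-0.41) and Atp2a3 (0.27) did not pass. The remaining IP3 receptor, Itpr1, stood at -0.44 ± 0.11 (adjusted p = 0.0549).

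Of 15 measured receptors that signal through G proteins in islets, 3 rose and 0 fell, with a median of 0.11. The purinergic receptor P2ry1 rose by 0.88 ± 0.13 (adjusted p = 0.0176 in limma). Ffar3, a receptor for short-chain fatty acids that couples mainly to inhibitory G proteins, rose by 0.98 ± 0.12 (adjusted p = 0.0117). The muscarinic receptor Chrm1, which neither vehicle array measured well above background, was at least 1.67-fold higher (adjusted p = 0.0167) under the 75th percentile scaling. Its log2 fold change of 0.95 there was 0.56 without scaling and 0.35 with spike-in scaling, both smaller than that bound. Chrm3, the main muscarinic receptor of the beta cell (-0.13 ± 0.14), and the fatty acid receptor Ffar1 (0.46 ± 0.19) did not pass. Of 17 genes that set the excitation of the beta cell, 2 rose and 2 fell, with a median of -0.08. The glucose-6-phosphatase G6pc2 (1.94, adjusted p = 0.00339) and the sodium channel Scn3a (0.68, adjusted p = 0.0256) rose. The potassium channel subunit Kcnj11 (-0.64, adjusted p = 0.0448) fell.

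All 23 genes of these lists that passed and that the naming rule took kept their sign when any 1 array was left out. Fewer passed then: 5 without GKA replicate 1, 4 without GKA replicate 2, 14 without vehicle replicate 1 and 19 without vehicle replicate 2. Itpka, Gnai2, Mcoln3 and G6pc2 passed in each of these 4 fits.

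Trpm5, Gng13 and Plcb2 also mark tuft cells, the chemosensory cells of epithelia. Of 22 tuft cell markers on the array, 14 were measured, 3 rose and 1 fell, with a median of 0.21 and a summed scaled signal of 8.21 to 8.56 with GKA, against 8.04 to 8.26 with vehicle. Dclk1 (3.13, with its 3 probes from 0.47 to 3.13), Sh2d6 (1.26) and Ascl2 (1.26) rose (adjusted p = 0.00247, 0.0130 and 0.0199 in limma). Pou2f3, the transcription factor that defines the lineage, stood near background, with intensities of 16.6 and 11.7 with GKA and of 17.3 and 14.5 with vehicle. Gfi1b, Il25, Alox5, Sucnr1 and Spib stayed below the background criterion on every array. Of 11 beta-cell markers, 3 rose and 0 fell, with a median of 0.31 and a summed scaled signal of 1423 to 1455 with GKA, against 1156 to 1166 with vehicle. Most of that sum is Ins1, Ins2 and Iapp, which did not pass. Its direction depends on the scaling: their log2 fold changes of 0.31, 0.25 and 0.27 were -0.07, -0.13 and -0.11 without scaling. Of the other marker lists, 1 of 9 alpha-, delta- and PP-cell genes rose and 0 fell (median 0.31), 1 of 8 acinar genes rose and 2 fell (-0.23), 1 of 10 duct genes rose and 2 fell (0.03), and 1 of 10 endothelial genes rose and 1 fell (-0.03). The part of any of these cell types in the signals of Trpm5 and Gng13 was not tested.

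**Figure D4:**
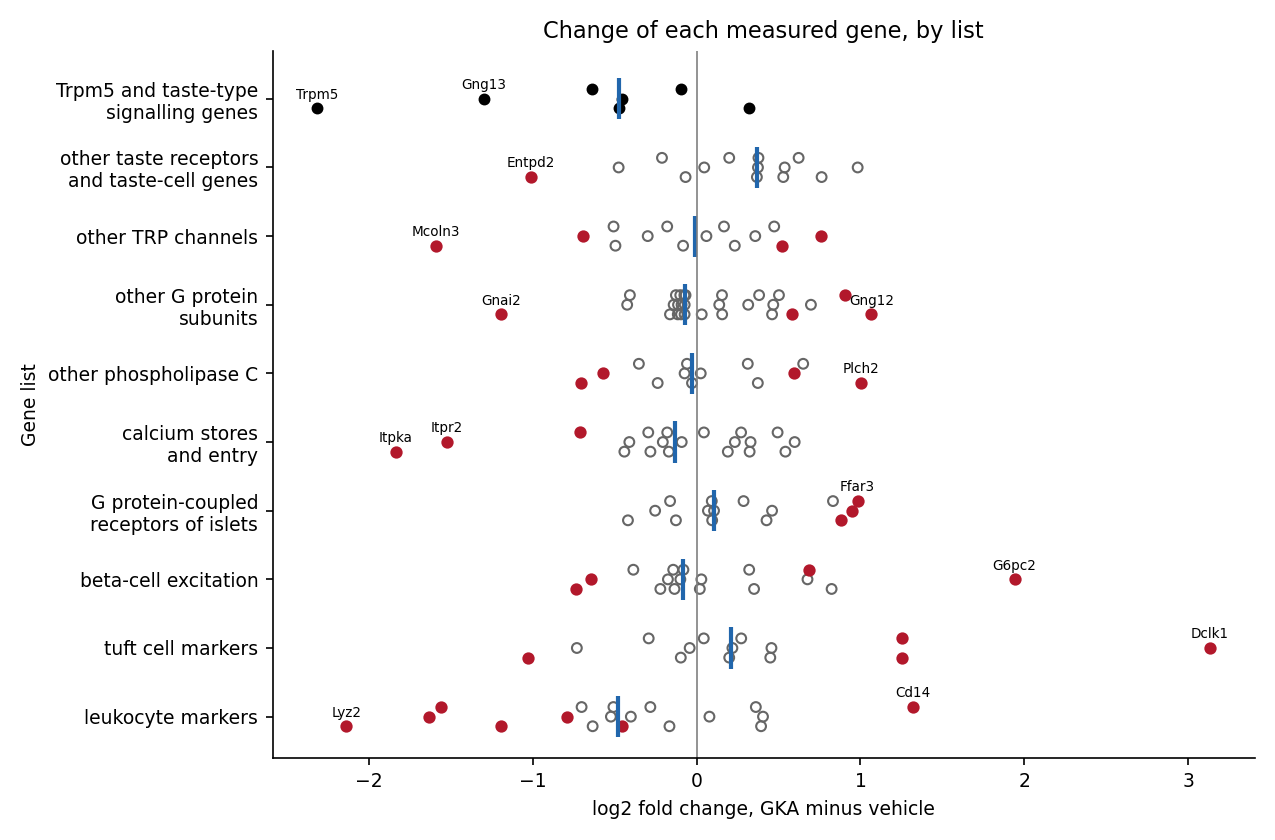
Log2 fold change (GKA minus vehicle) of each measured gene in the lists named on the vertical axis, with the median of a list as a blue bar. Red points passed limma's adjusted p threshold of 0.05 and open points did not, and the genes chosen with this contrast known (top row) are in black, with no test shown. Trpm5 at -2.31 and Gng13 at -1.30 compare with -1.59 for Mcoln3, the lowest of the other TRP channels, and -1.19 for Gnai2, the lowest of the other G protein subunits.

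Genes with a pattern like that of Trpm5 were sought by the root mean square difference, over the 4 arrays, between the deviations of both genes from their vehicle means. Among 12586 named genes well above background on all 4 arrays, the smallest differences were those of Armc4 (0.18), Calml4 (0.18), Emid1 (0.20), Rdm1 (0.20) and Sema5a (0.22). Emid1, an extracellular matrix gene, had intensities of 859 and 751 with GKA and of 5290 and 3683 with vehicle. Armc4, a gene of motile cilia, had 50.2 and 44.6 with GKA and 280 and 241 with vehicle. Calml4, a calmodulin-like gene, had 33.6 and 26.6 with GKA and 171 and 154 with vehicle. The log2 fold changes of these 5 genes lay between -2.60 and -2.06. They were picked for likeness in this contrast, so this is a description.

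Position on the chromosome was not used to choose the genes. Trpm5 lies on distal chromosome 7 in a cluster that holds imprinted genes, and its 8 nearest protein-coding genes on each side were taken from the gene order of RefSeq (GRCm38.p6). Of these 16, 14 were measured, 2 fell and 4 rose in limma, with a median of 0.21, where 17.1% of all genes passed and 8.00% fell. The genes that fell were the next 2 on the Kcnq1 side. Kcnq1, a potassium channel, stood at -3.42 and -3.48 with GKA and at -2.31 and -2.77 with vehicle on the scaled log2 scale, so that it was at -0.91 ± 0.18 (adjusted p = 0.0304). Cdkn1c, a cell-cycle inhibitor, was at -1.17 ± 0.21 (adjusted p = 0.0248). On the other side, the nearest gene, Tssc4, rose by 0.59 ± 0.13 (adjusted p = 0.0411). Further away, Ascl2 (1.26), Tnfrsf22 (1.29) and Tnfrsf26 (1.75) rose (adjusted p = 0.0199, 0.0223 and 0.00621 in limma). The size of the Tnfrsf26 change rests on a signal near background. On vehicle replicate 1 it stood at -6.02, below the lowest signal well above background there, -5.91. Ascl2 was also dim with vehicle, at -5.20 and -5.72. Ins2, 6 genes from Trpm5, stood at 0.25 ± 0.11 (adjusted p = 0.172).

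**Figure D5:**
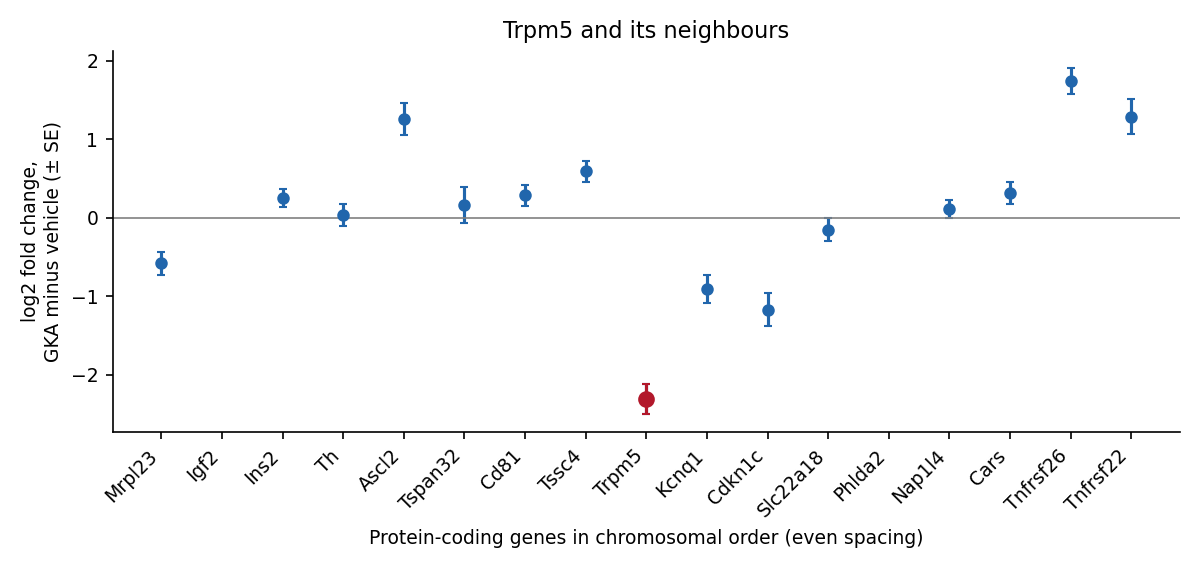
Log2 fold change (GKA minus vehicle, with SE as bars) of Trpm5 (red) and of its 8 nearest protein-coding genes on each side (blue), in chromosomal order with even spacing; genes without a point were not measured. Trpm5 is the lowest at -2.31, Kcnq1 and Cdkn1c beside it stand at -0.91 and -1.17, and Tssc4 on its other side at 0.59.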

How the data were processed

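RNA of 4 islet samples, 2 with GKA and 2 with vehicle as the labels' titles give them, was hybridised to 1 Agilent array each. The intensity of each spot is the processed signal of Agilent Feature Extraction, made with version 10.7.3.1 per the file headers, while the submitters' processing notes name version 9.1. The authors also deposited 1 table with an intensity per group and a ratio of GKA over control, which equals the quotient of the group values. How that table was made is not given in the sources used here.

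From the array files, control spots and spots marked as outliers were left out, spots of a probe were averaged as log2 intensity, and the 75th percentile of each array was subtracted. A probe entered if both arrays of 1 group or of both had it well above background (one with several spots, when at least 0.5 of them were), and each gene was represented by its kept probe with the highest mean. This left 17178 genes. The comparison was fitted in R version 4.3.3 using limma version 3.58.1 (its lmFit and eBayes, two-sided), and a gene passed at an adjusted p (Benjamini-Hochberg, over all genes) under 0.05. Residual degrees of freedom were 2 and the prior added 3.34. The fit was also run on simulated data, with the outcome not reported here. A gene that did not pass is not thereby shown to be unchanged. "Rose" and "fell" are used only of genes that passed.

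The 10 genes, the lists and the motifs were chosen with earlier results of these data known. Besides the 10 genes, the rule named up to 3 passing genes per list and direction, or the 2 brightest where none passed, and the 5 genes most like Trpm5. A few list genes are not reported here by name. Other members of the lists, and the neighbours of Trpm5, were named after their values were seen. A gene that no array of the dimmer group measured well above background gets a bound, the mean log2 signal of the brighter group against the higher, per array, of its own signal and the lowest signal well above background. Probe positions are on mm9 as in the authors' deposited table, without an annotation of that build.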

Additional observations from a re-analysis of the deposited data

How the results depend on the processing

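The log2 fold change of Trpm5 stayed between -2.91 and -2.09 under 16 alternatives, and that of Gng13 between -1.90 and -0.93. Not all of these could move it. Both genes have 1 probe and the groups are of equal size. The alternatives for the filter, for combining probes and for the replicate block therefore left the values at -2.31 and -1.30 by construction. The 2 of the 10 genes with an adjusted p under 0.05 (Trpm5 and Gng13) became 6 without scaling, 5 with spike-in scaling, 4 with normexp background correction and either the 75th percentile or quantile scaling, 1 (Trpm5) without the filter on dim probes, and 1 to 3 when 1 array was left out. Gng13 was not among them without GKA replicate 1 or GKA replicate 2. All 2942 changed genes became 8404 without scaling, 7147 with spike-in scaling, 5044 with normexp and the 75th percentile and 223 without the filter, and ran from 513 to 2882 with 1 array left out (513 without GKA replicate 2, 595 without GKA replicate 1, 1827 without vehicle replicate 1), where fewer samples leave 1 residual degree of freedom less. Tas1r3, at 0.32, turned to -0.067 without scaling, -0.28 with spike-in scaling and -0.020 in the authors' deposited table, and ran from -0.11 (without GKA replicate 1) to 0.74 with 1 array left out. Trpm3, at -0.09, turned to 0.16 with normexp and the 75th percentile and ran from -0.23 to 0.040 (without GKA replicate 2) with 1 array left out. For Tas1r3, leaving out the scaling or using spike-ins shifts the log2 fold changes of all genes alike, which turns its sign. The deposited ratio is of the unscaled kind. Without GKA replicate 1, the scaled Tas1r3 signal of -2.80 on GKA replicate 2 stood against -2.67 and -2.71 with vehicle. The cause of the other turns was not tested. Normexp used the median spot signal, an alternative chosen after seeing the data, because the mean signal is not a column of the files. Replicate numbers are shared between the groups, but same-numbered samples did not deviate together over genes (correlation 0.08), so the numbers were not taken as pairs. With the replicate block, 1972 genes passed, and Trpm5 and Gng13 remained the 2 of the 10. The count was 3, with Trpm4 added, under median scaling and quantile normalization, where 3229 and 3006 of 17178 genes passed. It was also 3, with Trpm4, for probes well above background on all 4 arrays and for the mean of a gene's probes. The adjusted p of Trpm4 in limma was 0.034, 0.047, 0.041 and 0.0499 in these settings. Of the 10 genes, 7 were tested, except without the filter on dim probes, where all 10 were. With spike-in scaling these 7 had the same SE, 0.31, so the counts there do not rest on each gene's own spread.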

Other observations

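Some dim taste-cell genes differed more between the vehicle arrays than between the groups. They were chosen after their values were seen. The proton channel Otop1 had a scaled log2 signal of -4.58 and -5.00 with GKA, against -6.05 and -5.05 with vehicle. The channel-associated gene Pkd1l3 had -3.18 and -3.46 with GKA, against -4.28 and -3.41 with vehicle, and the bitter receptor Tas2r131 had -3.85 and -4.20 with GKA, against -4.91 and -4.22 with vehicle. In all 3, vehicle replicate 1 was the lowest of the 4 arrays. None passed in limma, with an adjusted p of 0.182 for Otop1, 0.267 for Pkd1l3 and 0.205 for Tas2r131.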
